A study of Mus musculus with 9 samples.

Results

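The genes described here are the glutathione transferases, peroxiredoxins, thioredoxins and their relatives, superoxide dismutases, catalase and the enzymes that make, recycle or break down glutathione, measured in single cells of the mouse epididymis. They are all genes of the count table whose symbol begins with Gsta, Gstm, Gstp, Gstt, Gsto, Gstk, Mgst, Prdx or Txn, together with Sod1, Sod2, Sod3, Cat, Gclc, Gclm, Gss, Gsr and Ggt1. Of 32195 genes in the table, 62 met this rule, and 58 remained after 4 pseudogenes were left out. The transferases comprised 4 alpha, 7 mu, 3 pi, 4 theta, 2 omega, 1 kappa and 3 microsomal genes, and the others were 7 peroxiredoxins, 18 genes of the thioredoxin family, 4 dismutases or catalase and 5 genes of the glutathione supply. Untreated C57BL/6 mice were pooled into 1 pool at 42 days of age (P42) and 2 pools at 56 days (P56, called replicate 1 and replicate 2), and the caput, corpus and cauda of each pool gave 9 libraries. Because the animals of a pool were combined before sequencing, differences between single mice were not measured.

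Glutathione is a small thiol that cells hold as their main soluble antioxidant, and glutathione transferases attach it to reactive or foreign compounds so that these can be exported. Peroxiredoxins reduce peroxides and are themselves reduced by thioredoxin, which thioredoxin reductases keep in its reduced state, while superoxide dismutases turn superoxide into hydrogen peroxide that catalase or the peroxidases remove. In the epididymis sperm with membranes rich in unsaturated lipids mature and are stored in a lumen lined by principal, basal and clear cells, and antioxidant enzymes are known products of this epithelium.

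Every transcript was counted by its unique molecular identifier (UMI). The libraries held 23114756 to 50655384 UMIs, and the 41361 cells used had a median of 3105 to 7640.5 UMIs per library, lowest in the P42 cauda. Populations were rebuilt from marker genes without the genes described here, and the name of a population stands for cells that look like it. Left unnamed were 2115 cells in 3 clusters. Of these, 290, 536 and 822 came from the caput libraries and 13 to 199 from each other library. These clusters were led by cell cycle genes or held principal cell markers beside those of clear/narrow or basal cells. The principal cells (20854 of the cells used) were the least distinct, since 22 of their 38 markers were highest in them but none reached 2 times the next population, whereas the median ratio to the next population was 3.05 to 64.1 for the other populations. The summed principal cell markers reached a median of 31.7% (basal cells) to 74.6% (halo/T cells) of their principal cell level in the other populations of the same library, and the part of free transcripts or doublets in the values of the other populations was not tested. All 58 genes had UMIs, from 31 to 353405 over all cells. Mitochondrial transcripts made up 6.52% to 6.88% of caput UMIs, 14.8% to 23.1% of corpus UMIs and 10.4% to 17.5% of cauda UMIs, and with mitochondrial genes left out 24 genes were called over segments in principal cells (25 with them kept). Of the corpus principal cells at P56, 38.5% and 68.7% lay in a cluster led by the immunoglobulin genes Iglc1, Jchain and Ighm. It was named from 6 principal cell markers at 2 times the level of the other cells of all libraries. Against other cells of the same libraries 0 reached this. Clusters led by Bsph2 (5 and 2), by Ltf, Ptgds and Smarca1 (8 and 0) and by Svs2 (5 and 0) were likewise named only across segments and ages. With finer clustering 1326 cells led by the same immunoglobulin genes were unnamed. Levels are given as CPM, the count of a gene scaled to a common total of the UMIs of a population in a library and are compared between samples for the same gene, not between genes. In the comparisons of segments and of ages CPM also carry the TMM factors of the fit. Levels between populations, in the sperm clusters, of marker lists and at the limit of a count of 0 do not. In principal cells the factors over segments ran from 0.753 (cauda, P56 replicate 1) to 1.31 (cauda, P42). Values on the 2 scales therefore cannot be compared directly.

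In principal cells most of the tested glutathione transferases differed between the segments of the duct. A gene was called when the 3 segments differed at an adjusted p under 0.05 (quasi-likelihood test of edgeR with the pool as a block, adjusted over all genes by Benjamini and Hochberg) and the highest segment exceeded the lowest by at least 1 on the log2 scale. Each adjusted p over segments is that of the joint test of the 3 segments. Of the 55 genes with enough counts to be tested, 25 were called (45.5%), against 33.2% of all genes tested. They were 15 of 21 transferases, with a median log2 difference between the highest and lowest segment of 2.14, and 10 of the 34 other genes (29.4%, near the share of all genes), with a median of 0.69, whereas the median over all genes tested was 0.86. The caput was the highest segment for 7 of them (14.3% of all genes tested), the corpus for 11 (9.64%) and the cauda for 7 (9.24%). Gsta1, Gstp2 and Mgst2 had too few UMIs for the test. Without the pool of P56 replicate 1 the number called was 14, and without P56 replicate 2 it was 16. Gsta4, Gstm2, Gstp3, Mgst3, Prdx6, Sod2, Txndc2, Txndc8, Txnip and Txnrd2 lost the call without either of them, and Gstm7 without P56 replicate 1.

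All 3 tested alpha transferases were called. Gsta2 lay at 0.532, 0.292 and 0.358 CPM in the caput (in the order P42, P56 replicate 1 and P56 replicate 2, which is kept below), at 9.22, 12.6 and 19.4 CPM in the corpus and at 19.1, 49.4 and 61.4 CPM in the cauda. It was close to absent in the caput of every pool, and in each pool it was higher in the cauda than in the corpus. The cauda exceeded the caput by 6.69 ± 0.41 (log2, SE; adjusted p = 3.04e-05), although 53.3% of the 60-base stretches at the ends of its transcripts are shared with other genes such as Gm10639, so that its counts may include theirs. Gsta3 lay at 38.2, 29.5 and 40.7 CPM in the caput, 112, 161 and 162 CPM in the corpus and 84.0, 226 and 223 CPM in the cauda. Its caput values were below all others, and the corpus and cauda overlapped through the P42 cauda. The cauda was higher than the caput by 2.19 ± 0.31 (adjusted p = 0.00188). Gsta4, which prefers the lipid aldehyde 4-hydroxynonenal, ran the other way. It lay at 48.5, 46.0 and 44.7 CPM in the caput, 20.1, 13.7 and 10.7 CPM in the corpus and 9.10, 22.9 and 22.1 CPM in the cauda, with no overlap between the caput and the other segments, and the corpus was lower than the caput by a log2 difference of -1.65 ± 0.35 (adjusted p = 0.00947).

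**Figure D1:**
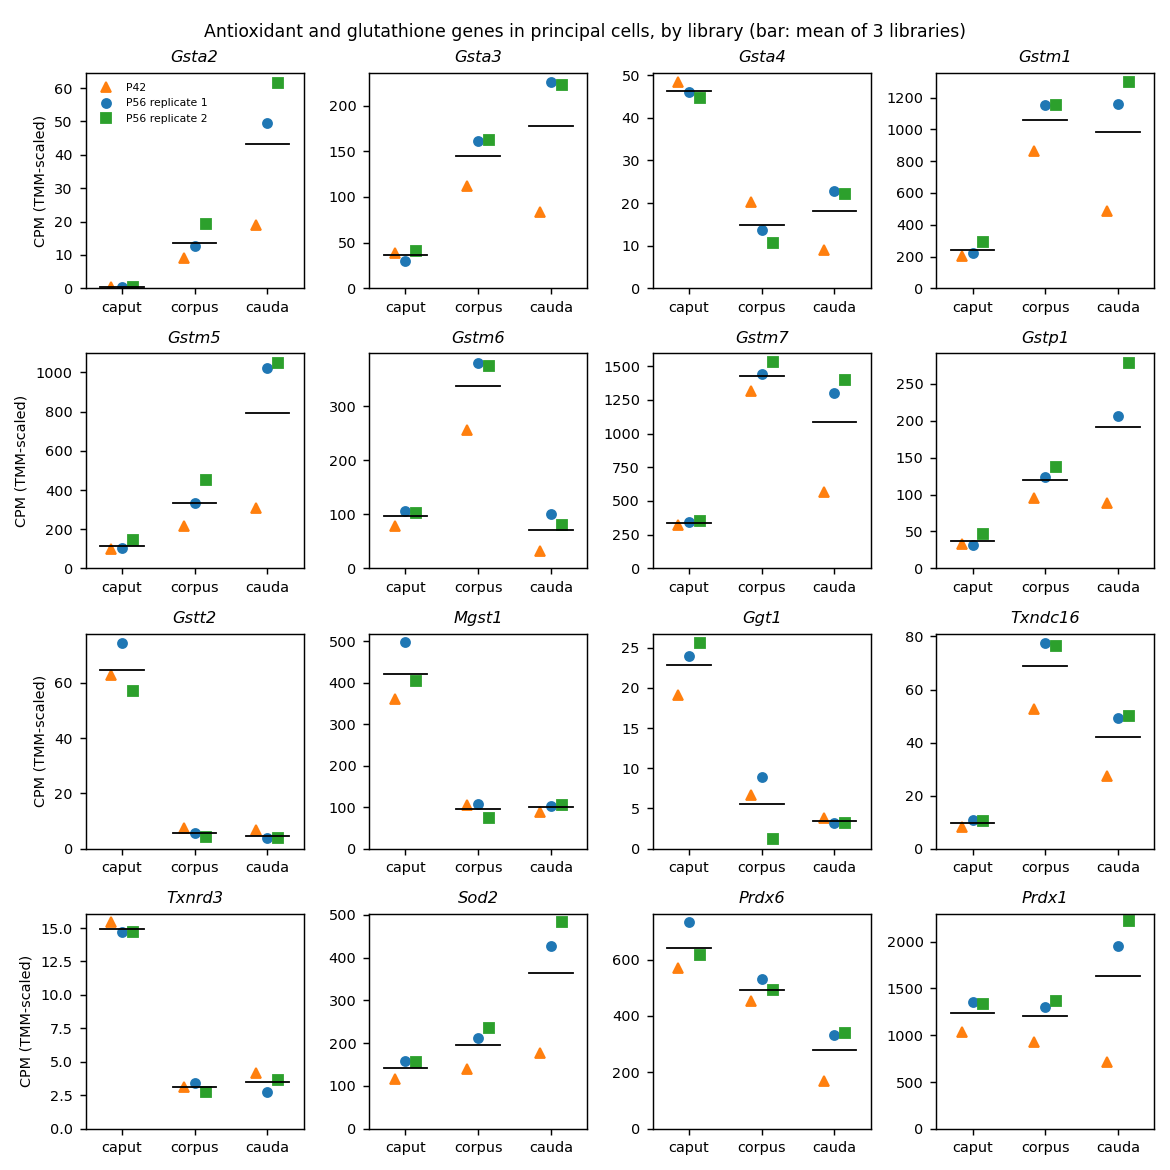
Level of 16 genes in principal cells (vertical axis, CPM scaled by TMM, from 0) in the caput, corpus and cauda, with a triangle for P42, a circle for P56 replicate 1, a square for P56 replicate 2 and a bar for the mean of the 3 libraries. Gsta2 and Gstm5 climb along the duct in each pool, Gstp1 does so at P56, Gstm6 peaks in the corpus, Gstt2, Mgst1, Ggt1 and Txnrd3 are high in the caput, and in the cauda the P42 triangle lies below both P56 values for Gstm1, Gstm5, Gstm7 and Prdx1.

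The mu transferases were all called. Their 7 genes lie side by side on chromosome 3 (GRCm38.p6, chr3:107895854-108045179), and 6 of them were lowest in the caput. Gstm1, Gstm3, Gstm4, Gstm6 and Gstm7 were highest in the corpus, and Gstm2 and Gstm5 in the cauda. Gstm5 rose along the duct, from 97.5, 104 and 148 CPM in the caput through 214, 336 and 454 CPM in the corpus to 309, 1024 and 1050 CPM in the cauda. Its values climbed from segment to segment in each pool, and the cauda was higher than the caput by 2.62 ± 0.31 (adjusted p = 0.000824). Gstm6 peaked in the middle, with 78.8, 107 and 102 CPM in the caput, 255, 380 and 373 CPM in the corpus and 32.9, 101 and 79.7 CPM in the cauda. Every corpus value was above every caput and cauda value, and the cauda was lower than the corpus by a log2 difference of -2.32 ± 0.24 (adjusted p = 0.000248). Gstm7 lay at 321, 346 and 350 CPM in the caput, 1316, 1438 and 1533 CPM in the corpus and 569, 1298 and 1395 CPM in the cauda.

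Gstm1 lay at 202, 221 and 292 CPM in the caput, 864, 1154 and 1151 CPM in the corpus and 486, 1159 and 1298 CPM in the cauda. The caput did not overlap with the other segments for Gstm1 or Gstm7, and the corpus exceeded the caput by 2.15 ± 0.27 for Gstm1 (adjusted p = 0.000903) and by 2.07 ± 0.28 for Gstm7 (adjusted p = 0.00175). Gstm4 lay at 7.51 to 8.57 CPM in the caput, 33.7 to 36.2 CPM in the corpus and 11.2 to 17.6 CPM in the cauda, 3 ranges without overlap (adjusted p = 0.000103). Gstm3 rested on 99 UMIs, at most 0.0512 CPM in the caput and 1.60 to 2.08 CPM in the corpus (adjusted p = 0.000555). Gstm2 had the smallest segment difference of the mu genes (1.07 ± 0.27 between cauda and caput, adjusted p = 0.0208), and its call was also lost without the block and with library sizes left unscaled. Stretches of 60 bases shared with other genes made up 19.9% of the transcript ends of Gstm1, 9.76% of those of Gstm6 and 7.29% of those of Gstm2, so that reads could be exchanged between neighbours.

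The remaining transferases differed in their highest segment or were not called. The pi gene Gstp1 lay at 32.8, 31.3 and 46.3 CPM in the caput, 95.7, 124 and 138 CPM in the corpus and 87.9, 206 and 279 CPM in the cauda. Its caput values were the lowest of all, and the cauda was higher than the caput by 2.27 ± 0.27 (adjusted p = 0.000866). It shares 75.9% of its transcript ends with other genes, mainly Gstp2, so its counts may be affected by reads that fit both. The neighbouring gene Gstp3 was found only in the caput and corpus, with 45 UMIs in all principal cells. Of these, 43 came from caput libraries and 2 from corpus libraries. It was at 0 in the 3 cauda libraries, where a count of 0 allows up to 0.0764 CPM over the segment. Set against this limit, the summed caput libraries were at least 10.5-fold higher. This fold allows for counting error of the cauda only and leaves out the spread between pools. The adjusted p was 0.00827, in a test that rests almost wholly on the few caput UMIs.

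The theta genes lie within 63.3 kb on chromosome 10, and only Gstt2 of these 4 was called in principal cells. Gstt2 lay at 62.7, 74.3 and 56.9 CPM in the caput, 7.52, 5.82 and 4.08 CPM in the corpus and 6.65, 3.75 and 3.82 CPM in the cauda. The caput stood apart from the other segments, and the cauda was lower by a log2 difference of -3.83 ± 0.23 (adjusted p = 1.2e-05). Gstt3 was also lower beyond the caput, at 79.2 to 96.5 CPM in the caput and 38.3 to 50.9 CPM elsewhere, but with a log2 difference of -0.95 between corpus and caput it stayed short of the required size, and it was called in all cells (1.04, highest in the caput, adjusted p = 0.0120). Gstt4 had 0 to 0.870 CPM in the 9 libraries with a difference of 1.72 that did not pass (adjusted p = 0.372). The microsomal gene Mgst1, a membrane-bound transferase and peroxidase, lay at 362, 498 and 405 CPM in the caput, 105, 108 and 73.5 CPM in the corpus and 88.9, 103 and 106 CPM in the cauda. No corpus or cauda value reached the caput, and the corpus was lower by a log2 difference of -2.14 ± 0.20 (adjusted p = 8.37e-05). Mgst3, which can conjugate leukotriene A4, was lowest in the caput instead (20.2 to 23.8 CPM) and highest in the corpus (57.7 to 78.3 CPM), with a difference of 1.55 ± 0.26 (adjusted p = 0.00355). The omega genes Gsto1 (0.70) and Gsto2 (0.13) and the mitochondrial and peroxisomal kappa gene Gstk1 (0.31) had segment differences below 1 on the log2 scale.

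**Figure D2:**
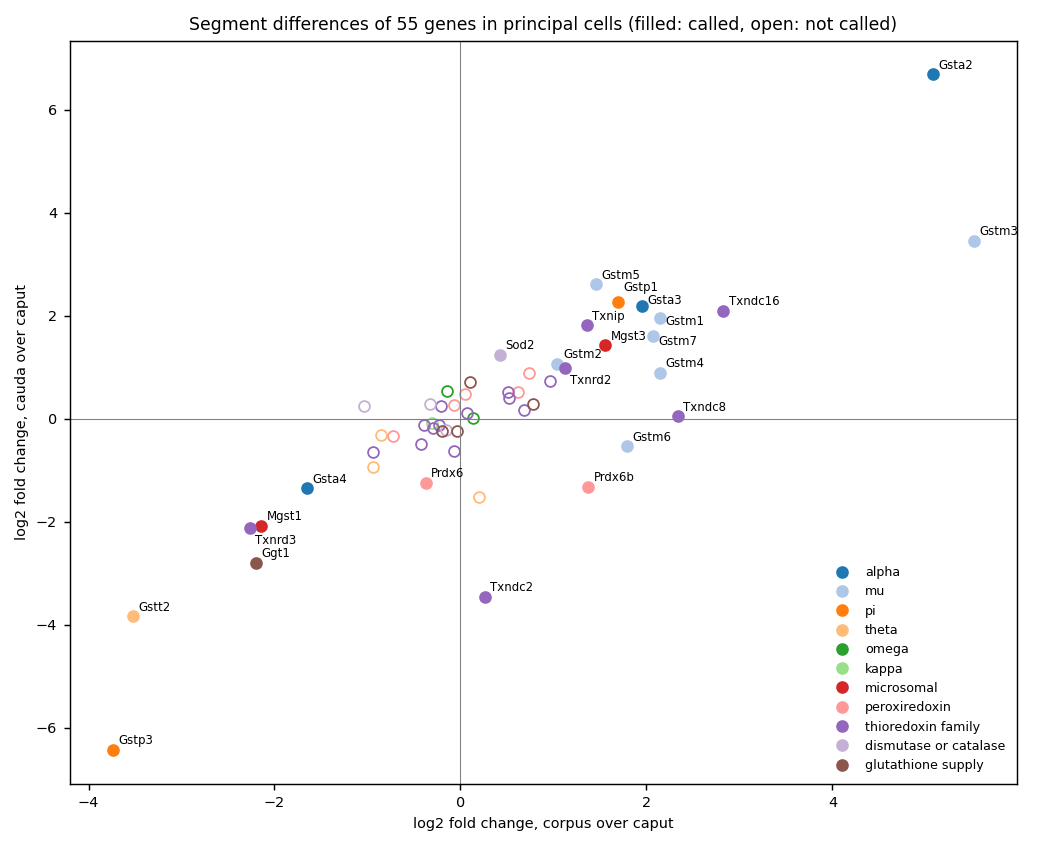
Fitted log2 fold change of 55 genes in principal cells, corpus over caput (horizontal axis) against cauda over caput (vertical axis), coloured by family, with filled points for called genes and open points for genes not called. Gsta2 and most mu genes lie to the upper right and Gstt2, Gstp3, Ggt1 and Mgst1 to the lower left, while most peroxiredoxins and thioredoxins are open points near the origin. The place of Gstp3, at 0 in the cauda, depends on the fit.

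Upstream sequence of 4 of these genes is shown because some of the group hold the core of a known regulatory element. The antioxidant response element is bound by the factor Nrf2, and its core TGACNNNGC was searched on both strands in the RefSeq promoter windows (GRCm38.p6, 250 bases before to 50 bases after each start). It occurred in 12.4% of 32851 windows, and in 14 of the 66 windows (21.2%) of the 49 genes with a window. These 14 belonged to Gclm, Ggt1, Gsta3, Gstm5, Gstm7, Mgst1, Prdx1, Sod1, Txndc11, Txndc2, Txndc5 and Txnrd1. A longer form, with an A required after the core, was no more frequent in the group. It occurred in 3.04% of all windows and in 2 of the 66 (3.03%). The 250 bases upstream of the start are printed for Gsta3 (chr1:21240335-21240584) and Gstm5 (chr3:107895604-107895853), which were high in the cauda, for the window of Mgst1 that holds the core (chr6:138140277-138140526), which was high in the caput, and for Gclm (chr3:122245307-122245556), which was not called over segments. All 4 are read on the plus strand, and capitals mark the core or its reverse complement, 121 bases before the start in Gsta3, 42 in Gstm5, 56 in Mgst1 and 134 in Gclm.
Gsta3: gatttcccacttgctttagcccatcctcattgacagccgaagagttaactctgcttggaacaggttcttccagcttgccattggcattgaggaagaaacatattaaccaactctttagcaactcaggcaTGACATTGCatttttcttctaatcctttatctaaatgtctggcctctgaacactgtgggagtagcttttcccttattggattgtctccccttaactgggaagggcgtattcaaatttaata
Gstm5: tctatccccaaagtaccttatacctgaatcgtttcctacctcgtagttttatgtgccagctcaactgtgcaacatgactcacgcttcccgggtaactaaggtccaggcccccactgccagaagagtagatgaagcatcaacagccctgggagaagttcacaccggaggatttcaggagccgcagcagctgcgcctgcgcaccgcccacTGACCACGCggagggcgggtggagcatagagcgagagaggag
Mgst1: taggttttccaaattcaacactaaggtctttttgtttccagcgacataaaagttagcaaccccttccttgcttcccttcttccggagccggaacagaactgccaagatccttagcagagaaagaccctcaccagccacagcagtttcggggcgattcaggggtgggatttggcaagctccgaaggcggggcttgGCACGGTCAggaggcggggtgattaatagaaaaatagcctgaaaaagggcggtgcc
Gclm: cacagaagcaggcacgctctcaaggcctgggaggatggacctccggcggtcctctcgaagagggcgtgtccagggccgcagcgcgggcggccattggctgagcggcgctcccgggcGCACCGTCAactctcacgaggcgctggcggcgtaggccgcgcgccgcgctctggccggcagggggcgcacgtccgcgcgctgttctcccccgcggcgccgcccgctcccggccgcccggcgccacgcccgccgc
The core thus lay upstream of genes that were high at opposite ends of the duct as well as of a gene that was not called, and a match is a description of the sequence and not a site of binding.

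Among the peroxiredoxins only Prdx6 and Prdx6b of 7 were called in principal cells. Prdx6, which reduces phospholipid hydroperoxides, lay at 572, 735 and 615 CPM in the caput, 452, 532 and 491 CPM in the corpus and 168, 332 and 340 CPM in the cauda. It was highest in the caput in each pool, and the cauda was lower than the caput by a log2 difference of -1.24 ± 0.22 (adjusted p = 0.00739). Its relative Prdx6b was highest in the corpus, at 3.91, 9.49 and 8.56 CPM against 1.05 to 1.36 CPM in the cauda (adjusted p = 0.00103), but rested on 536 UMIs in principal cells and was mainly a transcript of sperm (described with the sperm). Prdx1 lay between 717 and 2225 CPM and Prdx2, Prdx3, Prdx4 and Prdx5 had differences below 1, so that none of these was called.

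The thioredoxin family had 6 called genes of 18 (33.3%, at the share of all genes, 33.2%). Txndc16, a thioredoxin-domain protein of the endoplasmic reticulum, lay at 7.98, 10.6 and 10.3 CPM in the caput, 52.6, 77.6 and 76.5 CPM in the corpus and 27.5, 49.1 and 50.1 CPM in the cauda. Every caput value was below every other value, and the corpus was higher by 2.83 ± 0.15 (adjusted p = 1.78e-05). The selenoprotein reductase Txnrd3, known from the testis, lay at 15.4, 14.7 and 14.7 CPM in the caput and at 2.71 to 4.20 CPM in the 6 other libraries, with no overlap and a log2 difference of -2.27 ± 0.20 between corpus and caput (adjusted p = 7.46e-05). The mitochondrial reductase Txnrd2 was higher in the corpus than in the caput by 1.12 ± 0.16 (adjusted p = 0.00153). Txnip, which binds thioredoxin and holds it inactive, lay at 76.4, 35.4 and 41.2 CPM in the caput, 99.5, 139 and 148 CPM in the corpus and 147, 223 and 164 CPM in the cauda, and the cauda was higher than the caput by 1.81 ± 0.34 (adjusted p = 0.00876). The remaining 2, Txndc2 (79 UMIs) and Txndc8 (91 UMIs), are thioredoxins of sperm and were called at 0 to 2.04 CPM (adjusted p of 0.0350 and 0.0152). The summed sperm markers in the same principal cells lay at 29.4, 67.0 and 227 CPM in the caput and 271, 158 and 136 CPM in the corpus. In the cauda they lay at 175, 10.1 and 25.9 CPM. The part of sperm transcripts in these calls and in that of Prdx6b was not tested. The central pair of the system was flat, with differences of 0.40 for the cytosolic thioredoxin Txn1 and 0.11 for the mitochondrial Txn2.

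Sod2, the mitochondrial dismutase, was the only called gene of its group. It lay at 115, 157 and 155 CPM in the caput, 139, 212 and 236 CPM in the corpus and 176, 428 and 484 CPM in the cauda, higher in the cauda than in the corpus in each pool although the ranges of these segments overlapped. The cauda was higher than the caput by 1.25 ± 0.22 (adjusted p = 0.00506). Sod3, the secreted dismutase, had a difference of 1.29 that did not pass (adjusted p = 0.218), and the cytosolic Sod1 (0.62) and Cat (0.21) stayed below the required size. Of the glutathione supply, Ggt1, which cleaves glutathione outside the cell, was called. It lay at 19.2, 24.0 and 25.5 CPM in the caput, 6.62, 8.94 and 1.22 CPM in the corpus and 3.85, 3.19 and 3.13 CPM in the cauda, with the caput above all other libraries and a log2 difference of -2.79 ± 0.53 between cauda and caput (adjusted p = 0.00462). The catalytic and modifier subunits of the first enzyme of glutathione synthesis, Gclc (0.71) and Gclm (0.24), the second enzyme Gss (0.78) and the reductase Gsr (0.24) were not called.

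With all cells of a library summed, 16 of 57 tested genes were called (28.1%, against 24.8% of all genes tested), a share near that of all genes. Of these, 14 were also called in principal cells with the same highest segment, and the others were Gstt3 and Gstp2. Gstp2 was higher in the cauda (0.476 to 1.43 CPM) than in the caput (0.0342 to 0.184 CPM), with an adjusted p of 0.00539 and the shared sequence given above. Differences in the proportion of cells and in their RNA content cannot be told apart in such sums. Without P56 replicate 1 the number called was 2, without P56 replicate 2 it was 7 and without P42 it was 27.

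Segment differences were also called in other populations. The share called was 13 of 46 in basal cells (13.8% of all genes tested), 10 of 47 in clear/narrow cells (13.0%), 8 of 47 in myoid cells/fibroblasts (10.9%), 11 of 45 in macrophages/monocytes (12.9%), 6 of 36 in endothelial cells (8.98%) and 8 of 26 in halo/T cells (15.1%). Gstp1 and Gstm6 were called in all 8 populations tested, sperm included, and Gstt2 and Txndc16 in 6 of 7. In each of these populations most called genes were called in principal cells with the same highest segment, for example 9 of 13 in basal cells and 8 of 8 in halo/T cells. The same share over all called genes was not computed, so this agreement cannot be read as particular to these genes. Principal cell markers were counted in these cells at up to 104% of their principal cell level, and their part in the repeated pattern was not tested. The caput, corpus and cauda were highest for 2, 8 and 3 genes in basal cells (5.24%, 4.27% and 4.34% of all genes), for 2, 4 and 4 in clear/narrow cells (5.08%, 3.72% and 4.18%) and for 1, 1 and 4 in endothelial cells (4.05%, 2.13% and 2.79%). With library sizes left unscaled these became 8, 7 and 2, then 7, 4 and 2, and last 2, 1 and 3. The medians over all genes also fell under this setting. In basal cells they were -0.39 (log2, corpus over caput) and -0.46 (cauda over caput). They were -0.30 and -0.34 in clear/narrow cells and -0.10 and -0.22 in endothelial cells. The tallies were 4, 2 and 2 in myoid cells/fibroblasts (5.63%, 2.65% and 2.62%), 6, 3 and 2 in macrophages/monocytes (6.34%, 3.11% and 3.44%) and 2, 3 and 3 in halo/T cells (7.33%, 3.56% and 4.25%). Leaving out 1 pool moved the counts to between 4 and 16 in basal cells, 1 and 15 in clear/narrow cells, 0 and 24 in myoid cells/fibroblasts, 2 and 23 in macrophages/monocytes, 1 and 10 in endothelial cells and 1 and 14 in halo/T cells, with the highest count without P42 in each.

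A few genes had another highest segment, or were called only, outside the principal cells. In basal cells Gsta4 was highest in the corpus and not in the caput, at 110, 92.8 and 156 CPM in the caput, 262, 241 and 227 CPM in the corpus and 102, 118 and 94.3 CPM in the cauda. The corpus did not overlap with the other segments, and it was above the lowest segment by 1.21 (adjusted p = 0.00426). Gclc lay at 37.1, 38.8 and 71.0 CPM in the basal cells of the caput, 102, 99.2 and 107 CPM in the corpus and 62.6, 61.8 and 71.6 CPM in the cauda, so that the corpus was again the highest in each pool (1.10, adjusted p = 0.00977). Txnrd1, the cytosolic reductase, was higher in the corpus of basal cells (118, 212 and 296 CPM) than in their caput (92.1, 60.7 and 57.5 CPM; adjusted p = 0.0279). Gstt1 was called in basal cells (1.27) and clear/narrow cells (1.28) with the caput highest, against a difference of 0.86 in principal cells. Gsto1 was called in clear/narrow cells (1.64) with the cauda highest, against 0.70 in principal cells. None of these was called over segments in principal cells apart from Gsta4, and whether the populations differ in their segment differences was not tested.

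Between populations, the basal cells had the highest level of 16 of 57 genes with at least 1 CPM in some population (28.1%), against 8.63% of 20469 genes. These ranks rest on means over unlike sets of libraries (9 for basal cells, 3 of the caput for ciliated cells and 8 for sperm). Basal cells were highest in 9 of 9 libraries for 6 of the 16 genes, but in 4 of 9 for Gclc, Gstm2 and Sod2 and in 1 of 9 for Txndc17. The populations were made from these cells, so levels are described without a test. Summed over the glutathione supply, basal cells had 833 ± 314 CPM (SD, n = 9) and principal cells 335 ± 71.3 CPM (n = 9). For the alpha transferases the sums were 404 ± 138 and 156 ± 58.6 CPM, for the pi genes 301 ± 134 and 108 ± 61.3 CPM and for the microsomal genes 633 ± 221 and 261 ± 161 CPM. The sums were 2686 ± 441 and 2322 ± 264 CPM for the peroxiredoxins and 2303 ± 289 and 1627 ± 124 CPM for the thioredoxin family. For 4 families the mean in basal cells was near or below that in principal cells. The mu genes had 2906 ± 836 CPM in basal and 3095 ± 1360 CPM in principal cells, the theta genes 98.5 ± 52.3 and 97.2 ± 60.9 CPM, the dismutases and catalase 492 ± 82.5 and 489 ± 103 CPM and the kappa gene 34.8 ± 6.15 and 45.7 ± 10.1 CPM, with ranges that overlapped.

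Gsto1, an omega transferase that reduces dehydroascorbate, had the highest ratio to the next population among the genes highest in basal cells. It lay between 37.1 and 83.7 CPM in their 9 libraries (58.4 ± 14.8, median 57.5), 3.68 times the next population, the macrophages/monocytes (15.9 ± 8.57). In cells gated by markers the ratio was 3.46, just under that of Gstp1 (3.48). Basal cells were highest in 9 of 9 libraries, and the level there was 448% to 2029% of that in the principal cells of the same library. Gclm lay between 343 and 992 CPM in basal cells (646 ± 257) and at 408 ± 73.2 CPM in the next population, the ciliated cells of the caput, and Gsr, the reductase of oxidized glutathione, at 100.4 ± 46.1 and 86.7 ± 31.7 CPM. Gstp1 (300 ± 134 CPM), Gsta3 (240 ± 71.9 CPM) and Mgst1 (531 ± 204 CPM) were also highest in basal cells in 9 of 9 libraries. For Gstp1 and Gsta3 the next population was the principal cells (107 ± 61.5 and 112 ± 57.9 CPM), and for Mgst1 the ciliated cells (404 ± 70.6 CPM). In basal cells the summed principal cell markers stayed at 17.4% to 31.7% of their principal cell level in the caput. They lay at 28.6%, 60.7% and 58.3% in the corpus and 26.1%, 57.7% and 68.6% in the cauda.

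Clear/narrow cells, which acidify the lumen, had the highest level of 4 genes (7.02%, against 10.5% of all genes). Among these was Prdx2, at 264 ± 35.8 CPM against 190 ± 37.2 CPM in basal cells and highest in 9 of 9 libraries. Ciliated cells had the highest level of 13 genes (22.8%), a share near that of all genes (21%). Txnip was highest in endothelial cells (410 ± 241 CPM against 246 ± 106 CPM in basal cells). Sod3 lay at 34.4 ± 27.8 CPM in myoid cells/fibroblasts and 36.2 ± 27.7 CPM in ciliated cells (n = 3), which overlapped, and at 2.36 ± 3.72 CPM in principal cells. The 7 genes highest in principal cells (12.3%, against 4.31% of all genes) were Gsta2, Gstm4, Gstm6, Gstm7, Gstt3, Prdx5 and Txndc16, and for each of them the values overlapped with those of the next population. The orders of neighbouring populations are thus often within the spread between libraries.

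**Figure D3:**
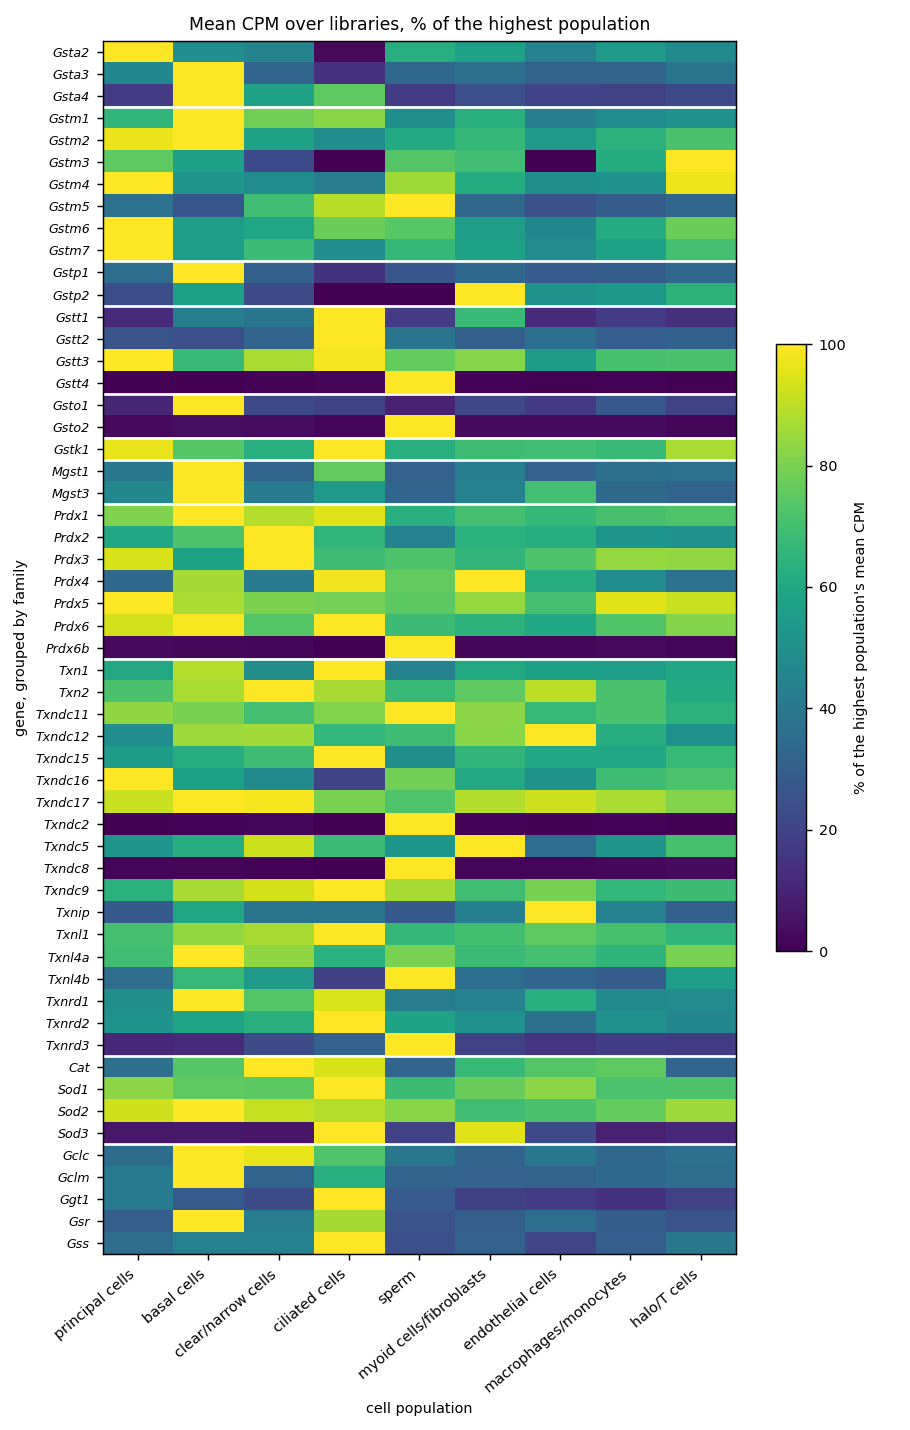
Mean CPM over libraries of 55 genes (rows, grouped by family, with at least 100 UMIs) in 9 cell populations (columns), as a percentage of the gene's highest population, from dark (0%) to yellow (100%). The basal cell column is yellow for Gsta3, Gsta4, Gstp1, Gsto1, Mgst1, Mgst3, Gclm and Gsr, and Gstt4, Gsto2, Prdx6b, Txndc2 and Txndc8 are yellow in sperm and dark elsewhere.

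Sperm carried the only 5 genes whose mean was at least 5 times that of the next population (8.77% of 57, against 18.5% of all genes). They were Gstt4 at 81.2 ± 63.9 CPM (SD, n = 8, 57.0 times the next population), Prdx6b at 156 ± 172 CPM (37.3 times), Gsto2 at 53.3 ± 51.5 CPM (26.8 times), Txndc2 at 75.5 ± 76.6 CPM (81.4 times) and Txndc8 at 40.2 ± 31.5 CPM (34.9 times). Each was highest in sperm in 7 of 8 libraries, the exception being the cauda of P56 replicate 2, which had 12 sperm. The cauda of P56 replicate 1 had 7 sperm and was not used. Txndc2 and Txndc8 encode the thioredoxins of the sperm tail and acrosome region, and Gsto2 reduces dehydroascorbate as Gsto1 does. Txnrd3 was also highest in sperm (65.9 CPM) but only 3.19 times the ciliated cells (20.6 CPM).

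With all sperm of a library summed, most of these transcripts were highest in the caput. In the same sperm the 12 sperm markers lay at 15327 to 32959 CPM in the caput, 7382 to 27500 CPM in the corpus and 27148 (P42) and 3663 CPM (P56 replicate 2) in the cauda, and the 13 myoid cell/fibroblast markers reached 33782 CPM in the P42 cauda sperm against 1172 CPM in those of P56 replicate 2. The part of these was not tested. Prdx6b lay at 389, 413 and 178 CPM in the sperm of the caput, 126, 25.7 and 98.8 CPM in the corpus, and 6.85 (P42) and 0 CPM (P56 replicate 2) in the cauda. The caput was above all other libraries, and the adjusted p was 0.000345. Gsto2 lay at 133, 110 and 72.3 CPM in the caput, 31.2, 15.0 and 35.4 CPM in the corpus and 27.4 and 0 CPM in the cauda, with the caput above all other libraries and an adjusted p of 0.00418. A count of 0 in the 94722 UMIs of the sperm of P56 replicate 2 allows up to 31.7 CPM. Gstt4 lay at 115, 186 and 139 CPM in the caput, 88.4, 30.0 and 64.9 CPM in the corpus and 34.2 and 0 CPM in the cauda (adjusted p = 0.00825). Txnrd3 lay at 97.2 to 186 CPM in the caput, 36.5 to 55.4 CPM in the corpus and 6.85 and 12.2 CPM in the cauda (adjusted p = 0.00206), and Txndc2 at 85.8 to 221, 23.6 to 71.0 and 47.9 and 0 CPM (adjusted p = 0.00284). Txndc8 lay at 45.9 to 88.4 CPM in the caput, 8.58 to 45.7 CPM in the corpus and 27.4 and 0 CPM in the cauda and did not pass (adjusted p = 0.0576). In all, 17 of 44 genes were called in sperm (29.5% of all genes tested). The caput, corpus and cauda were highest for 7, 8 and 2 of them (19.0%, 5.51% and 4.97%), which with library sizes left unscaled became 10, 6 and 1. With that setting the median over all genes in sperm moved from -0.16 to -0.42 (log2, corpus over caput). For cauda over caput it moved from -0.22 to -0.51. Of the 17, 10 were called in principal cells with the same highest segment, Mgst1, Gstm6 and Gstm7 among them, and principal cell markers reached a median of 59.7% of their principal cell level in sperm. The same overlap was not computed for all genes called in sperm. Without P42 the number called was 9.

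The sperm fell into 2 clusters that differed in these genes. The larger (642 cells) was led by the protamines Prm2 and Prm1 and by Smcp, and the smaller (223 cells) by Ldhc, Meig1 and Rbakdn and held no cell of the cauda. In the smaller cluster 12 of 12 sperm markers, but also 8 of 11 ciliated cell markers, reached 2 times the level of other cells. The smaller cluster made up 8 of 15, 32 of 51 and 131 of 286 sperm of the caput and 12 of 162, 14 of 131 and 26 of 142 of the corpus. Within it Prdx6b was highest in the P42 corpus (1030 CPM, against 609 and 383 CPM in the P56 caput libraries), as were Gsto2, Gstt4, Txndc8 and Txnrd3. In the larger cluster Prdx6b lay at 0 to 24.2 CPM and Txnrd3 at 1.56 to 19.4 CPM, and in the smaller cluster at 75.2 to 1030 CPM and 140 to 431 CPM. Gsto2 lay at 0 to 25.4 CPM in the larger and 32.2 to 200 CPM in the smaller cluster, also without overlap. Txndc8 did not overlap either, at 0 to 25.4 CPM and 32.2 to 277 CPM. The share of all genes without overlap between the clusters was not computed. Gstt4 (0 to 105 and 32.2 to 261 CPM) and Txndc2 (0 to 72.3 and 21.5 to 118 CPM) were found in both. In the larger cluster alone, a choice made after seeing the data, Gsto2 (adjusted p = 0.678), Txndc17 (0.0501) and Txnip (0.0605) were no longer called over segments, Prdx6b, Txnrd3 and Gstm4 had too few counts for the test, and Gstt4 (0.00173) and Txndc2 (0.0418) kept the call with the caput highest. Mgst3 (0.0492), Prdx6 (0.00848) and Sod2 (0.0377) were called there and not in all sperm.

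**Figure D4:**
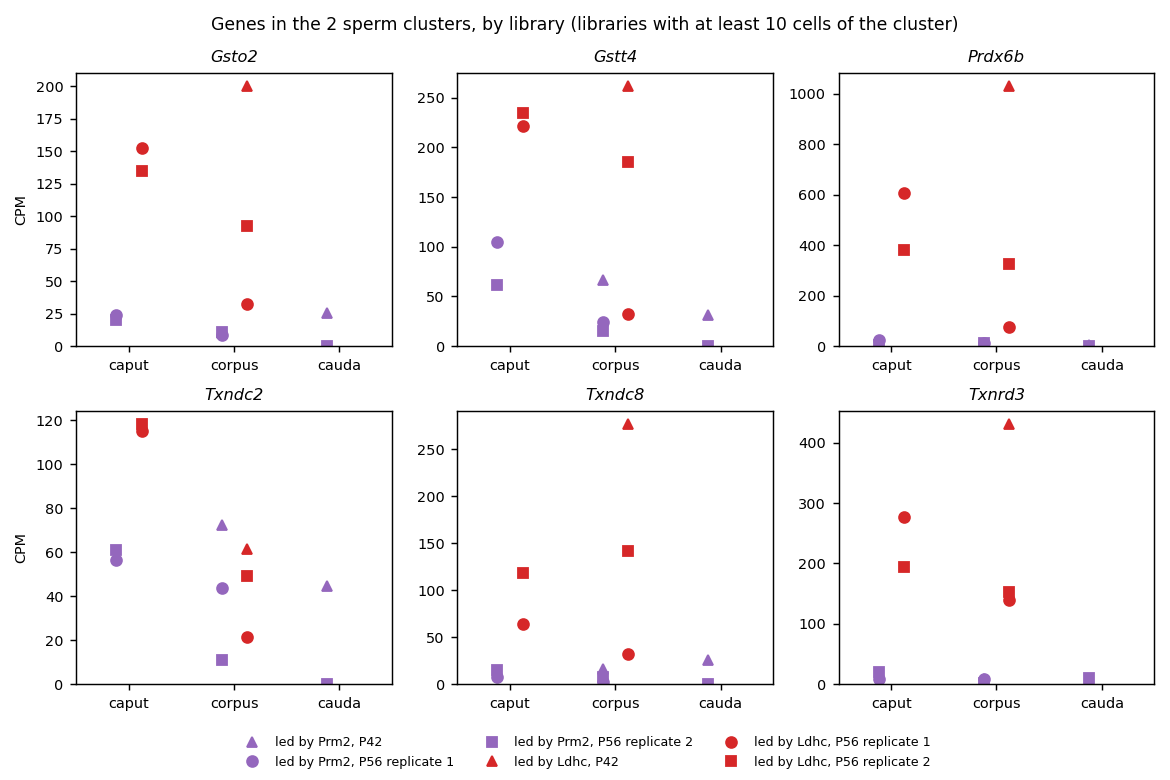
CPM of 6 genes (vertical axes, from 0) in the sperm cluster led by Prm2 (purple) and in that led by Ldhc (red), by segment, with symbols for the pools and points for libraries with at least 10 cells of the cluster. For Prdx6b, Gsto2, Txndc8 and Txnrd3 every red point lies above every purple point, while for Gstt4 and Txndc2 the colours overlap.

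The comparison of P56 with P42 asks how these genes differed between the ages. Each P42 segment was 1 library, so the spread came from the P56 pairs and the P42 library was assumed to vary like them. These pairs came from the same 2 pools in all 3 segments and were treated as independent. Age cannot be told apart from the pool. In caput principal cells 0 of 56 tested genes were called (0.541% of all genes tested) by edgeR, 11 had an unadjusted p under 0.05 (14.9% of all genes), and DESeq2 also called 0. In the corpus only Sod3 was called (2.66% of all genes), at 2.28 CPM at P42 and 0.311 and 0.414 CPM at P56 with a log2 change of -2.64 ± 0.49 (adjusted p = 0.0278), and without either corpus P56 library this call was lost. The summed myoid cell/fibroblast markers in the same corpus principal cells lay at 1470 CPM at P42 and 179 and 179 CPM at P56, the macrophage markers at 684 against 186 and 180 CPM, and their part in the change of Sod3 was not tested. Of the corpus principal cells at P42, 59.4% lay in a cluster led by Ltf, Pate1 and Defb22, which was not the largest cluster in either P56 corpus library. In the cauda 24 genes were called (20% of all genes tested), of which 21 were higher at P56 (7.73%) and 3 were lower (12.3%).

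Among the genes called in the cauda with TMM scaling, the 6 with the largest age differences were Sod3, Gstm5, Gstk1, Gclm, Prdx1 and Gsta2. Sod3 lay at 8.75 CPM at P42 and at 0.561 and 0.480 CPM at P56, a log2 change of -4.06 ± 0.41 (adjusted p = 0.000250), and the other genes that were lower at P56 were Gstt1 (-1.37 ± 0.32) and Prdx4 (-1.32 ± 0.19), a peroxiredoxin of the secretory pathway. Gstm5 lay at 297 CPM at P42 and at 1027 and 1056 CPM at P56, higher by 1.81 ± 0.27 (adjusted p = 0.00147). Gclm lay at 105 CPM at P42 and at 314 and 369 CPM at P56, higher by 1.70 ± 0.19 (adjusted p = 0.000378). In both cases the P42 library was far below the P56 pair, whereas in the corpus Gclm lay at 245 CPM at P42 and at 256 and 252 CPM at P56. Prdx1 rose from 689 to 1957 and 2238 CPM (1.61 ± 0.20, adjusted p = 0.000690), Gstk1 from 19.9 to 67.6 and 63.8 CPM (1.73 ± 0.21, adjusted p = 0.000649) and Gsta2 from 18.3 to 49.6 and 61.8 CPM (1.60 ± 0.28, adjusted p = 0.00312). CPM here carry the scaling of the fit over ages.

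The size of these changes and the number called depended on how the libraries were scaled. The median change over all genes was 0 with TMM scaling and -0.77 on the log2 scale when the TMM factors were set to 1, and that of the 56 genes was 0.83 and 0.038. Relative to all genes the median was thus 0.83 and 0.81, while the number called fell from 24 to 10, with 1 higher and 9 lower (216 and 5186 of all 18101 genes). The 4 genes called under both scalings were Sod3, Gstm5 (1.01), Gstt1 and Prdx4, and the 24 genes kept their direction. Gclm (0.90), Gstk1 (0.92), Prdx1 (0.80) and Gsta2 (0.80) were no longer called. The P42 cauda principal cells also differed in other ways. Their median was 1485.5 UMIs per cell against 7005 and 7759 at P56, and 86.9% of them lay in a cluster led by Defb9, Defb11 and Defb40 whereas 76.7% and 77.8% of those at P56 lay in a cluster led by Bsph2, Npy and Pate2. The 13 markers of myoid cells/fibroblasts summed to 15109 CPM in them against 353 and 344 CPM at P56, with 13 of 13 above both P56 libraries, the 13 macrophage markers to 2639 against 71.2 and 160 CPM, and the principal cell markers to 41614 against 95889 and 95104 CPM. The part of these in the age differences was not tested. With all cells summed, 3, 8 and 32 genes were called in the caput, corpus and cauda (3.53%, 10.6% and 32.2% of all genes), and Sod3 was lower at P56 in each. The age difference itself varied over segments for 12 genes in principal cells (8.30% of all genes) and for 19 in all cells (13.8%).

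**Figure D5:**
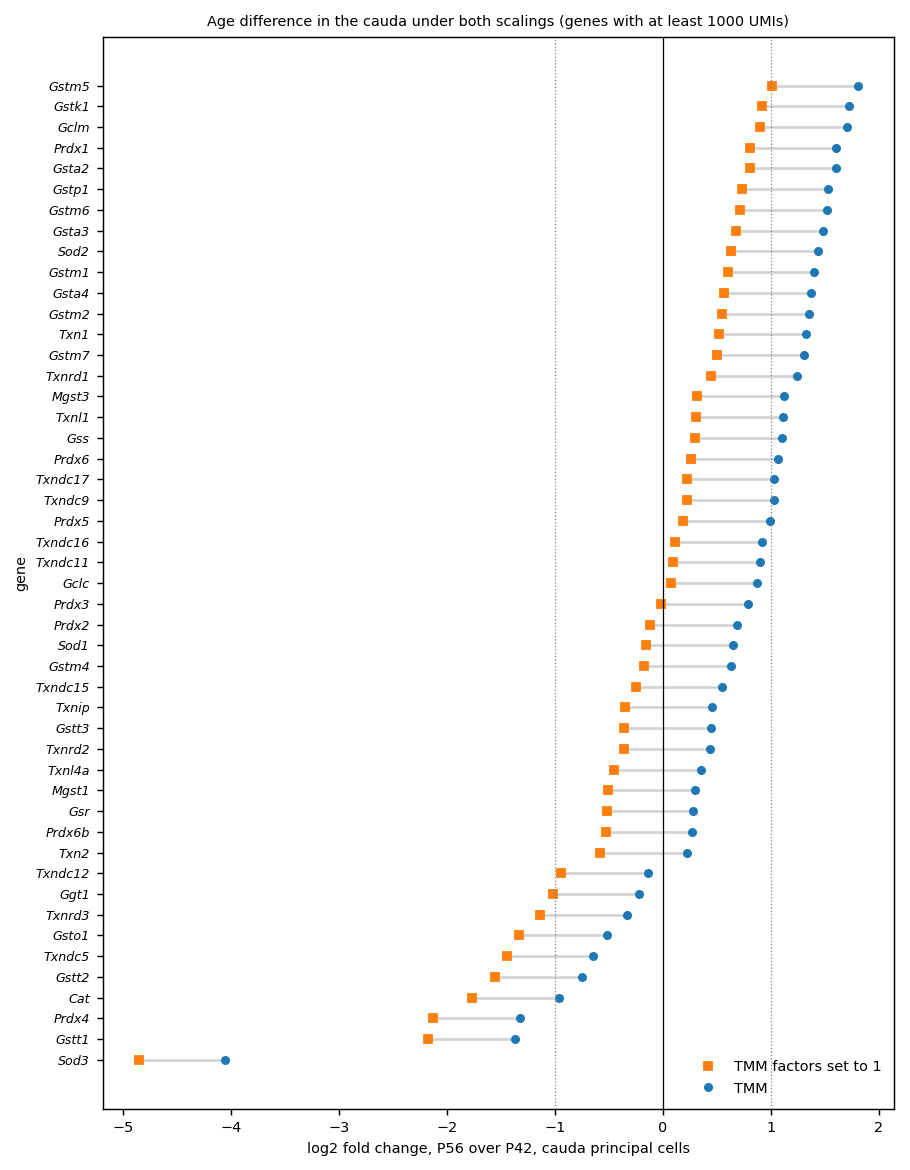
Fitted log2 fold change, P56 over P42, in cauda principal cells (horizontal axis) for 48 genes with at least 1000 UMIs (rows), with TMM scaling (circles) and with TMM factors set to 1 (squares), and dotted lines at -1 and 1. All genes shift by about the same amount between the scalings, and Sod3, Gstt1 and Prdx4 are below -1 under both.

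Of the 53 other genes listed for this pathway, 49 were tested in principal cells and 24 were called over segments (49.0%, against 33.2% of all genes), with the caput highest for 10, the corpus for 4 and the cauda for 10 and a median difference of 1.02. Among them Gpx5, Gpx3 and Gpx6, which are glutathione peroxidases, had the largest differences. Gpx5, the secreted epididymal peroxidase, lay at 37157, 86352 and 66965 CPM in the caput and at 48.5 to 507 CPM in the 6 other libraries (8.86), and Gpx6 (5.62) and Gpx7 (2.66) were highest in the caput as well. Gpx3, the plasma form, lay at 149 to 252 CPM in the caput and 5366 to 13912 CPM in the cauda (5.77). Ggt7 (5.24), a relative of Ggt1, was highest in the caput as Ggt1 was. The exporter Abcc4 (2.79) was highest in the caput, the peptidase Anpep (2.76) in the corpus, and Srxn1 (3.58), which restores overoxidized peroxiredoxins, in the cauda at 28.4, 173 and 215 CPM against 7.51 to 11 CPM in the caput.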

How the data were processed

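Single-cell libraries were made on a Singleron microfluidic chip. The authors trimmed reads with fastp, aligned them with STAR 2.7.3a to GRCm38.p6, assigned them to exons of GENCODE vM25 with featureCounts and collapsed molecules with UMI-tools, and they deposited raw UMI counts per gene and cell, without normalization.

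The members and all gene lists were chosen with earlier results of these data known. Cells with 300 to 4000 genes, at most 20000 UMIs and under 50% mitochondrial UMIs were kept (42087 of 44869 barcodes), and 726 rich in globins were removed. Doublets were not removed, and 143 barcode sequences (0.320%) occurred in more than 1 library. Cells were clustered (scanpy 1.11.5, leidenalg 0.10.2, 3000 variable genes, 50 components, resolution 1) without the genes described, the other pathway genes and mitochondrial genes, and clusters were named from marker lists. Counts were summed per library and population (at least 10 cells) and tested with edgeR 4.0.16 (R 4.3.3; quasi-likelihood, TMM, filterByExpr, Benjamini-Hochberg over all genes tested), with the pool as a block for segments and a mean per segment and age for ages. The 3 segments of each pool share mice, and over all cells the deviations of same-pool libraries correlated at 0.146 to 0.736 in 9 of 9 pairs, in principal cells at 0.031 to 0.614, with 7 of 9 over 0.1. Libraries of different pools correlated at -0.666 to 0.526 over all cells (4 of 18 over 0.1) and at -0.550 to 0.414 in principal cells (5 of 18). Those over 0.1 all joined the 2 P56 pools, so pool and age cannot be told apart in these correlations. DESeq2 1.42.0, other scalings, filters, clusterings and left-out libraries were alternatives. Named genes were those called over segments, the leading genes of families with fewer than 2 calls, at most 6 per segment for age, those at least 5 times the next population, and at most 8 other pathway genes. On simulated counts with 200 genes changed by 2 on the log2 scale, 153 were recovered for segments in principal cells, 106 in all cells, 185 in basal cells and 80 in sperm, and for age in the cauda 54 in principal cells and 0 in all cells. The simulated libraries had equal means apart from the change and the spread of the segment fit with the pool as a block. The reported age comparisons take their spread from the P56 pairs instead, so the age figures do not give their power. In these simulations unchanged genes were called over segments, 7 in principal cells, 6 in all cells, 21 in basal cells and 6 in sperm. For segments, p-values measure the spread of segment differences between pools. For ages they measure the spread between the 2 P56 pools within segments, taken as independent although the segments of a pool share mice. Intervals at a count of 0 (3 counts) cover counting error only. Shared transcript ends were computed from GENCODE release 21 transcripts (last 500 bases).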

Additional observations from a re-analysis of the deposited data

Results flagged for a closer look

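The age difference of 12 genes in principal cells differed between the segments (edgeR's interaction test with adjustment over all genes, 8.30% of all genes tested). The test was fitted without a pool block, although the 3 segments of a pool share mice. The value given for each gene is the difference between its highest and its lowest log2 change from P42 to P56 over the 3 segments. It was 2.67 for Sod3, which was lower at P56, with changes of -1.38, -2.64 and -4.06 in caput, corpus and cauda. For Gsta4 it was 2.06, with -0.10, -0.69 and 1.37 in the caput, corpus and cauda. For Gclm it was 1.65 (0.20, 0.05 and 1.70), for Gstk1 1.65 (0.08, 0.26 and 1.73), for Gsta3 1.61 (-0.13, 0.57 and 1.48) and for Txnrd1 1.53 (-0.28, 0.30 and 1.24). It was 1.34 for Mgst3, 1.30 for Txnl1, 1.24 for Prdx1, 1.20 for Gstm7 and 1.06 for Txn1, each with the largest change in the cauda. Txnip stood apart with 1.57, since its change was -1.0 in the caput and 0.56 and 0.46 in the corpus and cauda. Each P42 value is 1 library, and the markers of other cell types in the P42 cauda and corpus libraries, and the shift of all genes when TMM factors are set to 1 (-0.30, -0.47 and -0.77 in caput, corpus and cauda), move with these differences. Their part was not tested. With TMM factors set to 1 the number of genes was 5.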

How the results depend on the processing

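Of 143 counts of called genes under alternative settings, 98 stayed within 1.5 times the reported count. The shares of all genes called under these settings are not given here, so a change in a count need not be particular to these genes. Leaving out 1 pool gave 2 to 27 calls over segments in all cells, 14 to 28 in principal, 4 to 16 in basal, 1 to 15 in clear/narrow, 1 to 10 in endothelial cells, 0 to 24 in myoid cells/fibroblasts, 1 to 14 in halo/T cells, 2 to 23 in macrophages/monocytes and 9 to 16 in sperm. The highest counts arose without P42, except in sperm, where the count of 9 did. Leaving out a P56 library gave 3 to 7 calls between ages in the caput and 3 to 9 in the corpus of all cells, and 0 to 1 in the corpus of principal cells. Without a filter on low counts, 17 genes were called in macrophages/monocytes, 16 in myoid cells/fibroblasts and 10 in endothelial cells, 7 between ages in the caput of all cells, 3 in the caput and 2 in the corpus of principal cells, and 21 in their interaction. With TMM factors set to 1 the interaction had 11 genes in all cells and 5 in principal cells, whose age differences numbered 2, 5 and 10 in the caput, corpus and cauda.

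Without the replicate block the pairing by pool was ignored, and 24 genes were called in principal cells, 12 in all cells, 11 in basal, 8 in clear/narrow cells, 15 in sperm, 3 each in myoid cells/fibroblasts and macrophages/monocytes, 2 in endothelial and 1 in halo/T cells. Within a segment no paired analysis was possible for ages because each pool has 1 age. The age by segment interaction was also fitted without a pool block, although a block could have been fitted there. The marker gate kept cells with at most 1 detected marker of each other population, principal cell markers aside. It left 2575 of the 20854 principal cells, with 44 in the P42 caput and 11 in the P42 cauda. Cells gated by markers gave 20 calls in principal cells (17 shared), 4 in myoid cells/fibroblasts, 3 in macrophages/monocytes and 2 genes at 5 times the next population, Gstp3 (4 UMIs) and Sod3 (27.6 times, in myoid cells/fibroblasts), neither of them among the 5 of sperm, which were not gated. The gate was not run for endothelial, halo/T cells and sperm, which had too few cells. Clustering at resolution 2 gave 4 calls in macrophages/monocytes. Of 521 values of single genes, 459 kept their direction and call, 60 were weaker and 1 was stronger. Gsto2 in principal cells changed direction without P56 replicate 1, to -0.33 (0.39 without P42 and 0.38 without P56 replicate 2), and was not called in the report. The cause of these changes was not tested. With few UMIs Gstm3, Gstp2, Gstp3, Txndc2 and Txndc8 are limited by depth, and the lone P42 library of each segment limits the ages.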
